A study of Homo sapiens with 9 samples.

Results

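Of the 60656 genes in the deposited count table, 8 encode RNA-binding proteins that shorten the life of inflammatory transcripts: the Regnases ZC3H12A (Regnase-1) and ZC3H12D (Regnase-4), the Roquins RC3H1 and RC3H2, N4BP1, and the ZFP36 family ZFP36 (tristetraprolin), ZFP36L1 and ZFP36L2. They were chosen by name, with earlier results of these data known. RNA was sequenced from RIVA, a human lymphoma line of the activated B-cell-like (ABC) class of diffuse large B-cell lymphoma (DLBCL), carrying a doxycycline-inducible lentiviral construct. The construct held no insert (vector, 3 libraries, labelled as BCL10 wild type), BCL10 with the truncation S136X (3 libraries) or BCL10 with the missense change R58Q (3 libraries). All 9 libraries, vector included, received doxycycline at 200 ng/mL for 24 h in the treatment protocol (the sample characteristics list the dose per microlitre), and all were made from puromycin-selected pools of infected RIVA cells with their own BCL10 gene. The constructs were therefore compared on top of the BCL10 signal that the line already has, in a single cell line. No library carried a construct with wild-type BCL10. In the comparisons with vector, the effect of a mutation and that of added BCL10 therefore cannot be told apart.

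BCL10 acts together with MALT1 to activate NF-kB downstream of the B-cell receptor. MALT1 is a protease, and its known substrates include Regnase-1, both Roquins and N4BP1. Regnases and N4BP1 carry a PIN-like nuclease domain, Roquins bind stem-loops in 3′ untranslated regions and recruit the deadenylating CCR4-NOT complex, and ZFP36 proteins bind AU-rich elements and recruit the same complex. The transcripts of TNF, IL6 and other cytokines are known targets, and the factors also act on each other's mRNA. RNA counts measure the transcripts of these genes and not the proteins or their cleavage.

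The sequence elements that these proteins recognise also lie in transcripts of the factors. In the 3′ untranslated regions (UTRs) of 1 GENCODE 29 transcript a gene (GRCh38, mRNA strand only), a stem-loop of 6 paired bases around a loop of pyrimidine, purine, pyrimidine was found in 3 of the 8 genes, and 8.84% of 18412 UTRs held one. The lines below show 1 stem-loop of each of those genes, with the stem and loop in capitals, 3 flanking bases in lower case and the position of the capitals. The RC3H1 and RC3H2 elements had the same 15 bases.
ZC3H12A stem-loop, chr1:37483842-37483856, plus strand: gttGATACACATTGTATCtct
RC3H1 stem-loop, chr1:173934691-173934705, minus strand: aatAACTTCTGTGAAGTTgcc
RC3H2 stem-loop, chr9:122848227-122848241, minus strand: attAACTTCTGTGAAGTTgtt

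The AU-rich nonamer TTATTTATT, the core bound by the ZFP36 family, occurred in the UTRs of 4 of the 8 genes and in 7.73% of all UTRs. Its inner heptamer TATTTAT, which lies within every nonamer, occurred in 6 of the 8 genes and in 29.6% of all UTRs. All 3 ZFP36 genes held 3 heptamers and 1 nonamer, shown here in capitals with 8 flanking bases, while ZC3H12A and ZC3H12D held neither.
ZFP36 nonamer, chr19:39409206-39409214, plus strand: tgacgactTTATTTATTctaatatg
ZFP36L1 nonamer, chr14:68788087-68788095, minus strand: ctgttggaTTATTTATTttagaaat
ZFP36L2 nonamer, chr2:43223458-43223466, minus strand: tatttaacTTATTTATTatcttgtg

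Longer UTRs hold more matches. Among UTRs within 20% of its own length, the nonamer was in 4.99% of those like ZFP36 (713 bases), 8.71% of those like ZFP36L1 (1871 bases) and 8.78% of those like ZFP36L2 (1917 bases). A stem-loop was in 5% of UTRs as long as that of ZC3H12A (768 bases), but in 32.6% of those like RC3H1 (7507 bases, 4 stem-loops) and 25.3% of those like RC3H2 (5071 bases, 1 stem-loop and 2 nonamers). Of the RC3H1 stem-loops, those at bases 1757 and 1760 of the UTR overlap in a TA repeat and are not separate elements. The N4BP1 UTR (4178 bases) held 1 heptamer. Among UTRs of similar length, the heptamer was in 77.4% of those like RC3H1, 70.5% like RC3H2 and 64.6% like N4BP1. For ZFP36, ZFP36L1 and ZFP36L2 these shares were 20%, 39.7% and 40.3%. The nonamer was in 22.6% of UTRs like that of RC3H2. A match is a description of the sequence, and binding was not measured.

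The labels were first checked against the transgene and the cell type. BCL10 was at 26.3 to 38.8 CPM (reads of a gene relative to the TMM-scaled total of its library) in the vector libraries and at 309 to 488 CPM in the 6 mutant libraries. All 6 B-cell markers exceeded 10 CPM in every library, although CD79B was lower with S136X (−0.39 on the log2 scale, adjusted p = 0.0361) and CD79A with R58Q (−0.35, adjusted p = 0.0466). The 4 ABC markers summed to 1072 to 1190 CPM in vector, 1684 to 1871 CPM with S136X and 1640 to 1927 CPM with R58Q, and the part of these shifts in the results was not tested. IRF4, which is also on the list of target transcripts, was the largest of the 4 (means 737, 1171 and 1247 CPM in the same order). FOXP1 and PIM2 also averaged higher with both mutants, while IL16 averaged 57.8, 66.5 and 48.4 CPM. The 4 T-cell markers summed to at most 0.324 CPM and the 4 myeloid markers to at most 0.611 CPM. The 4 epithelial markers summed to 44.6 to 58.3 CPM in the vector libraries, 41.5 to 70.6 CPM with S136X and 41.9 to 71.4 CPM with R58Q. The 3 fibroblast markers summed to 6.08 to 9.23 CPM in the vector libraries against 12.4 to 18.2 CPM with S136X and 12.7 to 18.8 CPM with R58Q, and their part in the results was not tested. Of these, COL1A1 averaged 3.86 CPM in vector, 12.1 with S136X and 13.2 with R58Q, while COL1A2 averaged 3.18, 2.16 and 1.35 CPM in the same order. The names of the count columns give all R58Q libraries a later date than all other libraries, so that date and the R58Q construct cannot be told apart in either comparison that uses R58Q. Total counts ran from 28047713 to 33122267.

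All 8 genes were expressed. Per kilobase of exon, ZFP36L1 was the most abundant in the vector libraries (44.9 to 50.8 CPM per kb), followed by ZFP36 (35.9 to 44.6) and ZFP36L2 (24.7 to 26.1), with no overlap between neighbours. The other 5 genes lay well below. ZC3H12A (9.17 to 11.5 CPM per kb) overlapped RC3H2 (9.81 to 10.6), RC3H1 (6.99 to 7.33) overlapped N4BP1 (6.6 to 7.67), and ZC3H12D was lowest at 2.31 to 2.96. The order of the means was the same with both mutants. ZFP36L1 reached a mean of 70.7 CPM per kb with S136X and 85 with R58Q, while the R58Q ranges of ZFP36 (24.1 to 39.2) and ZFP36L2 (25 to 29.5) overlapped.

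Whether the mutants changed the levels of the factors was tested with edgeR's quasi-likelihood test in each pair of groups, with p-values adjusted over all genes tested (Benjamini-Hochberg), and a call required both a change of 1.5-fold or more and an adjusted p under 0.05. With S136X, 0 of the 8 genes were called against 3.87% of all 15530 genes tested (DESeq2 and limma-voom also called 0). At any fold, 3 of 8 had an adjusted p under 0.05 (10.1% of all genes). The same number had an unadjusted p under 0.05, for which no share of all genes is given. With R58Q, 1 of the 8 was called (7.63% of 15435 genes) and 3 of 8 had an adjusted p under 0.05 (21% of all genes). The same 3 genes, ZFP36L1, ZC3H12A and RC3H1, were higher with both mutants, 1 from each of the main families. Their 3 mutant libraries all lay above the 3 vector libraries, as did those of 16% of all genes with S136X and 21.1% with R58Q. The median log2 fold change of the 8 genes was 0.13 with S136X and 0.17 with R58Q, beside −0.020 and −0.028 over all genes tested. Both comparisons share the vector libraries. Blocking on the replicate number, 0 and 1 of the 8 were called (6.53% and 10.7% of all genes), and 3 and 5 passed at any fold (24.7% and 35.2%). In these bulk libraries, a different number of cells expressing a gene and a different amount of its RNA per cell cannot be told apart.

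**Figure D1:**
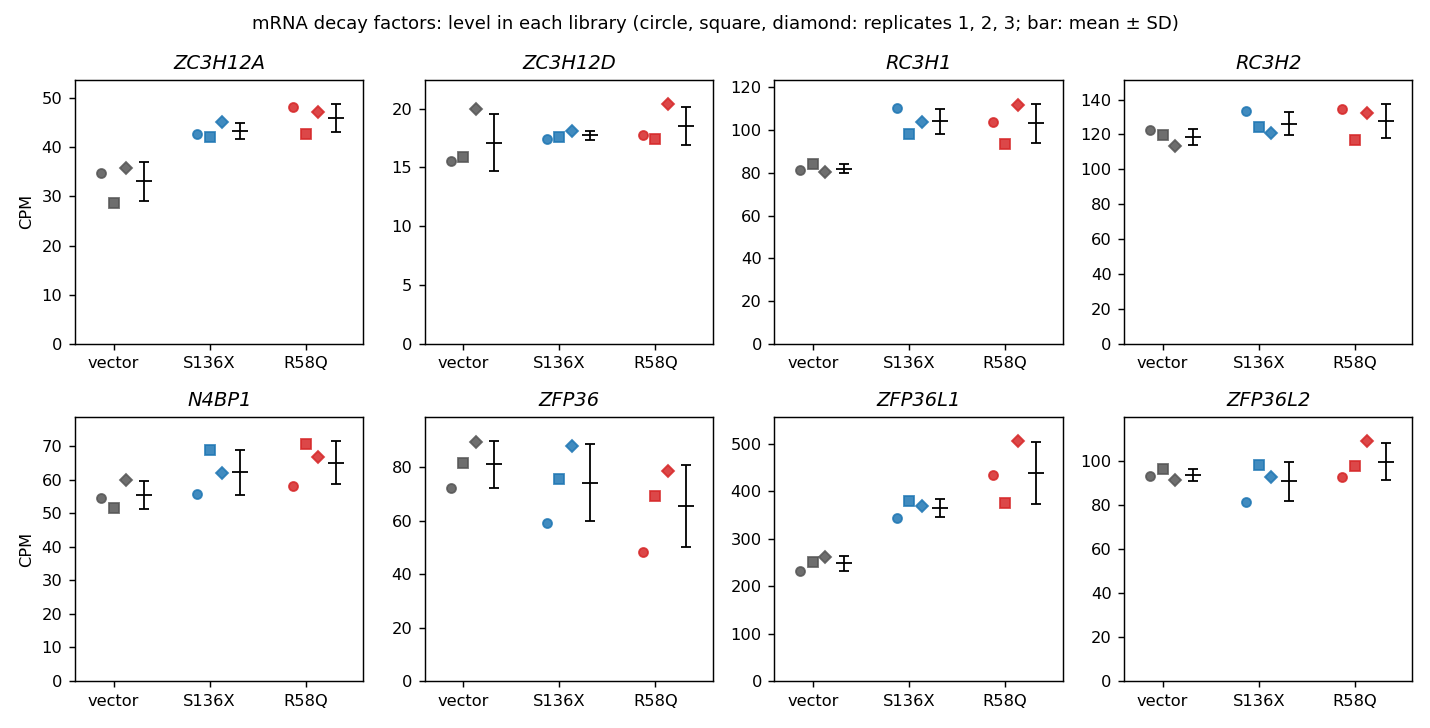
Level of each of the 8 decay factors in each library, in CPM on axes that start at 0, for vector (grey), S136X (blue) and R58Q (red), with replicates 1, 2 and 3 as circle, square and diamond and bars for the mean ± SD (n = 3). The mutant libraries of ZFP36L1, ZC3H12A and RC3H1 all lie above the vector libraries, and the groups of the other 5 genes overlap.

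ZFP36L1, which destabilises AU-rich transcripts in lymphocytes, changed most. It was at 232, 250.3 and 262 CPM in vector replicates 1, 2 and 3, at 344, 380.4 and 369 CPM with S136X, and at 435, 375 and 506 CPM with R58Q. Every mutant library lay above every vector library, and 2 of the 3 R58Q libraries lay above all S136X libraries. The rise with R58Q was 1.77-fold (log2 fold change 0.82, SE 0.108, 95% interval 0.57 to 1.07, adjusted p = 0.00211 by edgeR, higher in 3 of 3 libraries), and the gene stayed called in all 16 alternative fits (0.71 to 0.92). With S136X it rose 1.47-fold (log2 fold change 0.56, SE 0.0697, 95% interval 0.40 to 0.72, adjusted p = 0.00258), just under the fold needed for a call. It passed that fold without vector replicate 3 (0.61) or without S136X replicate 1 (0.60).

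The gene lies at chr14:68787660-68796253 on the minus strand (GRCh38, ENSG00000185650.10), and no other gene in the table overlaps it. By the root mean square difference of log2 CPM centred on the vector mean, over 9 libraries and 11958 protein-coding genes, the patterns most like it were those of ADPRH (0.0759), an ADP-ribosylarginine hydrolase, DENND4A (0.0838), a DENN-domain protein, and PDCD2L (0.0889). ADPRH had group means of 14.7, 21.2 and 26.8 CPM in vector, S136X and R58Q. DENND4A had 141, 218 and 260.4 CPM, and PDCD2L had 9.38, 13.4 and 16.9 CPM. Each rose in the same order as ZFP36L1, as the choice of the measure fixes.

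ZFP36 itself, the founding member of the family and an immediate early gene, took the opposite direction without passing the test. It was at 72.2, 81.5 and 89.7 CPM in vector replicates 1, 2 and 3, at 59.1, 75.8 and 87.8 CPM with S136X and at 48.5, 69.2 and 78.7 CPM with R58Q. The groups overlapped, but within each replicate number the order was vector, then S136X, then R58Q. The log2 fold change with R58Q was −0.31 (SE 0.162, 95% interval −0.68 to 0.060, adjusted p = 0.207) and with S136X −0.13 (SE 0.137, adjusted p = 0.598). The replicate number was taken to pair the libraries across groups, which the labels do not state, and the column names date all R58Q libraries later than the others. With that number as a block ZFP36 had an adjusted p of 0.00943 in R58Q (log2 fold change −0.33, SE 0.0762) and 0.121 in S136X.

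ZFP36L2, known with ZFP36L1 for its part in lymphocyte development, was at 93.2, 96.5 and 91.2 CPM in vector, 81.1, 98.2 and 92.8 CPM with S136X and 92.5, 97.6 and 109 CPM with R58Q. Its groups overlapped throughout. The log2 fold changes were −0.045 with S136X (95% interval −0.22 to 0.13, adjusted p = 0.753) and 0.089 with R58Q (95% interval −0.074 to 0.25, adjusted p = 0.406), so that a change of 1.5-fold lay outside both intervals. A gene that overlaps it in the table, AC010883.3, had at most 15 counts.

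ZC3H12A, the Regnase that cleaves stem-loops of cytokine mRNAs and of its own, was at 34.8, 28.6 and 35.9 CPM in vector, 42.7, 42.1 and 45.2 CPM with S136X and 48.2, 42.7 and 47.2 CPM with R58Q. Vector replicate 2 stood lowest, and all 6 mutant libraries lay above all 3 vector libraries. The rise was 1.39-fold with R58Q (log2 fold change 0.47, SE 0.0964, 95% interval 0.25 to 0.69, adjusted p = 0.0123). With S136X it was 1.31-fold (log2 fold change 0.39, SE 0.0936, 95% interval 0.18 to 0.60, adjusted p = 0.0338). The S136X value lost its adjusted p under 0.05 without vector replicate 2 (0.104), S136X replicate 2 (0.06) or S136X replicate 3 (0.0989), and also under upper-quartile scaling (0.0509) and scaling by total counts (0.0725).

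ZC3H12D, the other Regnase of the set, was at 15.5, 15.9 and 19.95 CPM in vector, 17.5, 17.6 and 18.1 CPM with S136X and 17.8, 17.4 and 20.4 CPM with R58Q. Both mutants lay mostly within the spread of the vector libraries. The log2 fold changes were 0.050 (95% interval −0.20 to 0.30) and 0.11 (95% interval −0.16 to 0.39), with adjusted p = 0.814 and 0.54.

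RC3H1, the Roquin first known from a mutant mouse strain with autoimmunity, was at 81.1, 84.3 and 80.4 CPM in vector, 110.2, 98.3 and 104 CPM with S136X and 104, 93.7 and 112 CPM with R58Q. The vector libraries were close together and below all 6 mutant libraries. The rise was 1.27-fold with S136X (log2 fold change 0.34, SE 0.0625, 95% interval 0.20 to 0.49, adjusted p = 0.0119) and 1.26-fold with R58Q (log2 fold change 0.33, SE 0.0732, 95% interval 0.16 to 0.50, adjusted p = 0.0165). In R58Q the adjusted p passed 0.05 without vector replicate 2 (0.0569), vector replicate 3 (0.0597) or R58Q replicate 3 (0.0537).

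RC3H2, its paralog with overlapping functions, was at 123, 119.5 and 113 CPM in vector, 134, 124 and 121 CPM with S136X and 135, 117 and 132 CPM with R58Q. The groups overlapped. The log2 fold changes were 0.092 (95% interval −0.051 to 0.23, adjusted p = 0.389) and 0.11 (95% interval −0.052 to 0.27, adjusted p = 0.301).

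N4BP1, a relative of the Regnases that restrains cytokine release, was at 54.4, 51.7 and 60.1 CPM in vector, 55.7, 69.0 and 62.1 CPM with S136X and 58.03, 70.6 and 66.8 CPM with R58Q. In each group except vector, replicate 2 was highest, and the groups overlapped. The log2 fold changes were 0.17 with S136X (95% interval −0.040 to 0.38, adjusted p = 0.28) and 0.23 with R58Q (95% interval 0.028 to 0.43, adjusted p = 0.0993). The R58Q value had an adjusted p of 0.0373 with the replicate block, and of 0.029 without R58Q replicate 1.

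**Figure D2:**
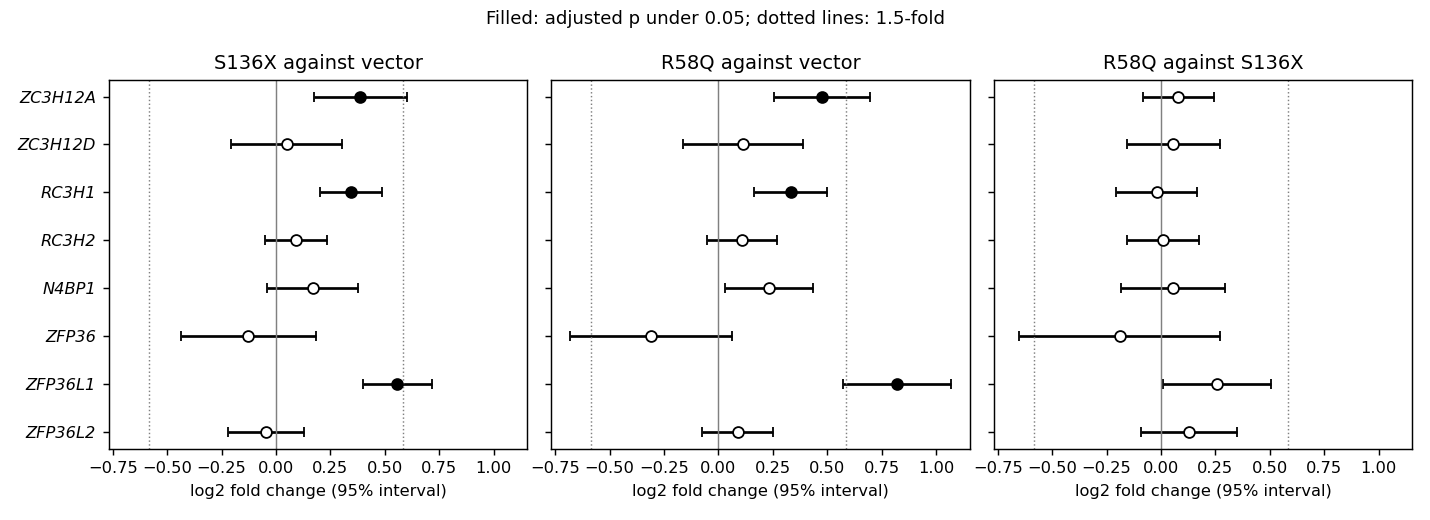
Fitted log2 fold change of the 8 genes in each of the 3 comparisons (points) with 95% intervals (bars). Filled points have an adjusted p under 0.05 and dotted lines mark 1.5-fold. ZFP36L1, ZC3H12A and RC3H1 are filled in both comparisons with vector, and no point is filled in the comparison of R58Q with S136X.

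Whether the mutants differed from each other was tested directly. Of the 8 genes 0 were called (0.434% of 15195 genes tested, and 0 members also by DESeq2 and limma-voom) and 0 had an adjusted p under 0.05 (0.533% of all genes). At an unadjusted p under 0.05, for which no share of all genes is given, 1 gene passed. That gene was ZFP36L1, at 0.26 on the log2 scale (SE 0.108, 95% interval 0.0070 to 0.51, adjusted p = 0.445). No member had R58Q libraries that all lay above or below the S136X libraries (17% of all genes did). For ZC3H12A, ZC3H12D, RC3H1, RC3H2 and N4BP1 the intervals of the difference lay between −0.20 and 0.29. For ZFP36L2 the interval was −0.093 to 0.35, and for ZFP36 it was −0.65 to 0.27. With the replicate block, ZFP36L1 (adjusted p = 0.00914) and ZFP36 (adjusted p = 0.00824) passed the test at any fold, beside 14.6% of all genes in that fit, and 0 of 8 were called, beside 2.94%.

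Count ratios between paralogs within a library do not depend on how libraries are scaled. They were chosen after the values were seen and are given as a description, uncorrected for length. ZFP36L1 had 3.21, 3.07 and 2.92 times the counts of ZFP36 in vector, 5.82, 5.02 and 4.21 times with S136X and 8.97, 5.41 and 6.43 times with R58Q. The groups of mutants and vector did not overlap for this pair, and the 2 mutants did. The ratio of ZFP36L1 to ZFP36L2 ran from 2.49 to 2.88 in vector and from 3.84 to 4.7 in the mutants. RC3H1 to RC3H2 ran from 0.662 to 0.71 in vector and from 0.772 to 0.859 in the mutants, and ZC3H12A to ZC3H12D from 1.8 to 2.24 and from 2.31 to 2.71. The remaining pair, ZFP36L2 to ZFP36, was at 1.02 to 1.29 in vector, 1.06 to 1.37 with S136X and 1.38 to 1.91 with R58Q, so that S136X overlapped vector.

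**Figure D3:**
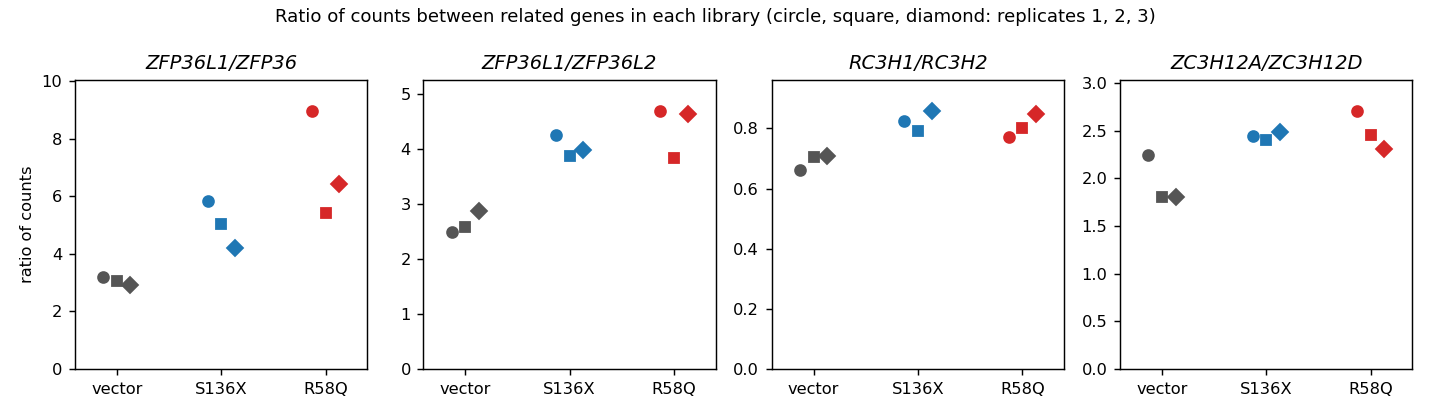
Ratio of read counts between 2 paralogs in each library (not corrected for length) on axes that start at 0, for vector (grey), S136X (blue) and R58Q (red), with replicates 1, 2 and 3 as circle, square and diamond. In each of the 4 pairs shown all mutant libraries lie above all vector libraries, as do the levels of the first gene of each pair taken alone. The pair ZFP36L2 to ZFP36, in which S136X overlaps vector, is not shown.

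Promoter sequence was searched for the NF-kB binding motif (the kappaB consensus, both strands) in RefSeq promoters of 250 bases before to 50 bases after the start (GRCh38.p14), which matched 6 of the 8 genes. Of 35116 promoters, 11.3% held a match. Among the members RC3H2 alone did, as GGGAATTTCC from 229 bases before the start with an overlapping match on the other strand, and its level did not pass the test with either mutant. ZFP36L1 (both promoters), ZC3H12A, RC3H1, N4BP1 and ZFP36 held 0 matches in this window. The RC3H1 window (chr1:173993023-173993322) lay inside the gene as annotated in the count table (chr1:173931084-174022357, minus strand). The N4BP1 window (chr16:48610131-48610430) also lay inside its gene (chr16:48538726-48620148, minus strand). The 5′ ends of these annotated genes were therefore not searched. Outside the set, 1 of 2 promoters of the relative ZC3H12C held a match, GGGGCCCTCC on the other strand, 232 bases before the start. The promoter of RC3H2, with the overlapping matches in capitals, and the upstream promoter of ZFP36L1, the member that changed most, read as follows on the strand of the gene.
RC3H2 promoter, chr9:122905310-122905609, minus strand: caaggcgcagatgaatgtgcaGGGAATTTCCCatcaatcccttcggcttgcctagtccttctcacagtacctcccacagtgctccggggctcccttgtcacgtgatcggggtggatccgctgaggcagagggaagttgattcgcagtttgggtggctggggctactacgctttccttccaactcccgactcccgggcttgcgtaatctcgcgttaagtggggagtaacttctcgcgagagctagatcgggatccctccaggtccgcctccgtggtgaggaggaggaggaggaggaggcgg
ZFP36L1 promoter, chr14:68796194-68796493, minus strand: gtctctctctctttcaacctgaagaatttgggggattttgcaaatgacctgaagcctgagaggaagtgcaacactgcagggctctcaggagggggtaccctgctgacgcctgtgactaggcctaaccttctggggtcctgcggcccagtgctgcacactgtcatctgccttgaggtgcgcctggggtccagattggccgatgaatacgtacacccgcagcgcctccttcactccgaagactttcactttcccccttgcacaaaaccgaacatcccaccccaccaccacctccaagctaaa

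Relatives of the Regnases outside the set were described whatever their values. ZC3H12C (Regnase-3) was at 7.92, 12.9 and 18.7 CPM in vector replicates 1, 2 and 3, at 22.9, 30.9 and 37.9 CPM with S136X and at 29.1, 38.5 and 60.3 CPM with R58Q. All mutant libraries lay above the vector libraries, and each group was spread over a wide range, lowest in replicate 1 and highest in replicate 3. It was called higher with S136X (2.32-fold, log2 fold change 1.21, SE 0.285, adjusted p = 0.0303) and with R58Q (3.24-fold, 1.69, SE 0.333, adjusted p = 0.0108). The first call was lost without vector replicate 2 (0.123), S136X replicate 2 (0.0708) or S136X replicate 3 (0.0989), and the second without vector replicate 2 (0.0519). With the replicate block both adjusted p-values were lower, at 2.71e-05 and 1.47e-06, and R58Q stood above S136X (0.47 in the fit without the block, adjusted p = 0.624, or 7.56e-05 with it).

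NYNRIN, a further protein with a Regnase-like nuclease domain, was at 32.0, 29.5 and 22.8 CPM in vector, 27.7, 21.7 and 17.8 CPM with S136X and 24.4, 20.3 and 14.96 CPM with R58Q. The groups overlapped, and within each replicate number the order was vector, then S136X, then R58Q. The log2 fold changes were −0.33 (adjusted p = 0.264) and −0.50 (adjusted p = 0.0877), with 0.0088 and 0.000777 under the replicate block, and the second was called without R58Q replicate 1 (0.029). KHNYN, the cofactor of the antiviral protein ZAP, was at 80.3 to 84.6 CPM in vector and 82.0 to 92.1 CPM in the mutants (log2 fold changes 0.024 and 0.098, adjusted p = 0.82 and 0.248). It shares 2037 exonic bases with SDR39U1 and 315 with CBLN3 on the other strand, and whether reads were counted by strand is not given in the sources used here, so its level is uncertain. ZC3H12B had only 3 to 35 counts a library.

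**Figure D4:**
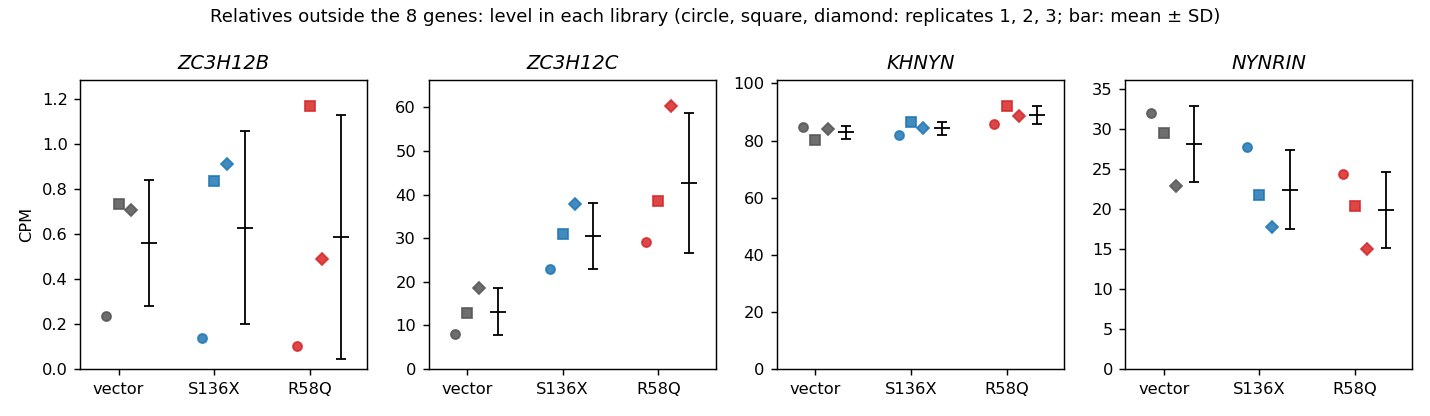
Level in CPM of the 4 relatives ZC3H12B, ZC3H12C, KHNYN and NYNRIN in each library, on axes that start at 0, for vector (grey), S136X (blue) and R58Q (red), with replicates 1, 2 and 3 as circle, square and diamond and bars for the mean ± SD (n = 3). ZC3H12C was higher in every mutant library than in any vector library, and ZC3H12B stayed at or below 1.17 CPM.

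The machinery that the factors recruit or that acts on them was followed in 54 genes, the 4 relatives above included: MALT1, the p38 and MK2 kinases, competing RNA-binding proteins, CCR4-NOT, PAN2-PAN3, decapping and exosome subunits. With S136X 1 of 54 was called higher (ZC3H12C) and 1 lower (BTG2), beside 2.05% and 1.82% of all genes. With R58Q 2 were called higher (ZC3H12C and ARID5A) and 1 lower (BTG2), beside 4.09% and 3.54%. The median log2 fold changes of the list were 0.066 and 0.047. Between the mutants 0 of 54 were called or had an adjusted p under 0.05 by edgeR, beside 0.434% and 0.533% of all genes. By DESeq2 or limma-voom 0 were called. At an unadjusted p under 0.05, for which no share of all genes is given, 4 passed.

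BTG2, an antiproliferative protein that binds the CCR4-NOT deadenylase, fell with both mutants. It was at 189.7, 218 and 208 CPM in vector, 113, 144 and 128 CPM with S136X and 109, 129 and 118 CPM with R58Q. The log2 fold changes were −0.68 (SE 0.095, adjusted p = 0.00424) and −0.79 (SE 0.0812, adjusted p = 0.000667), and both calls held in all fits that left out a library. ARID5A, which stabilises IL6 mRNA and opposes Regnase-1, was at 22.4, 24.7 and 23.5 CPM in vector, 27.1, 34.0 and 29.2 CPM with S136X and 33.3, 42.2 and 36.4 CPM with R58Q. Its rise with R58Q was 1.58-fold (0.66, SE 0.0965, adjusted p = 0.00308), and fell under 1.5-fold without R58Q replicate 2 (0.57). With S136X its log2 fold change was 0.35 (adjusted p = 0.0546).

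At any fold, 5 partners were higher and 2 lower with S136X, and 7 were higher and 4 lower with R58Q, at an adjusted p under 0.05, beside 6.03% and 4.1% of all genes with S136X and 12.3% and 8.76% with R58Q. The partners named next were chosen after their values were seen. The 7 included 4 of the 9 listed subunits of the RNA exosome, the 3′ to 5′ RNA-degrading complex: EXOSC7 (0.48, adjusted p = 0.00469), EXOSC5 (0.36, adjusted p = 0.00641), EXOSC3 (0.30, adjusted p = 0.0172) and EXOSC9 (0.24, adjusted p = 0.0187). The other 5 did not pass with R58Q, among them EXOSC10 (−0.013, adjusted p = 0.891), and with S136X only EXOSC3 and EXOSC7 of the 9 did. The 4 that fell were BTG2, its relative TOB1 (−0.49, adjusted p = 0.0143), the deadenylase subunit PAN2 (−0.45, adjusted p = 0.00138) and CNOT4 (−0.25, adjusted p = 0.0228). PAN2 was at 55.8 to 56.9 CPM in vector and 40.3 to 43.0 CPM in the 6 mutant libraries. MALT1 itself had log2 fold changes of −0.071 and −0.11, with adjusted p = 0.536 and 0.209.

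The transcripts that the factors are known to destabilise were followed in a list of 35, of which 22 had enough counts to be tested with S136X and 24 with R58Q. A gene near 0 counts in vector was tested only where a mutant raised it. The list was also written with earlier results of these data known, and several of its genes stand in gene lists that the study drew from these libraries. Counts over the tested genes, and the shares of all genes beside them, are therefore given as a description. With S136X 9 of 22 were called higher and 1 lower, beside 2.05% and 1.82% of all genes. With R58Q 13 of 24 were called higher and 0 lower (DESeq2 and limma-voom also 0 lower), beside 4.09% and 3.54% of all genes. At an unadjusted p under 0.05, for which no share of all genes is given, 0 were lower. The median log2 fold changes were 0.62 and 0.71. Several list members are also known NF-kB target genes, and changes in synthesis and in decay cannot be told apart in steady-state RNA.

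**Figure D5:**
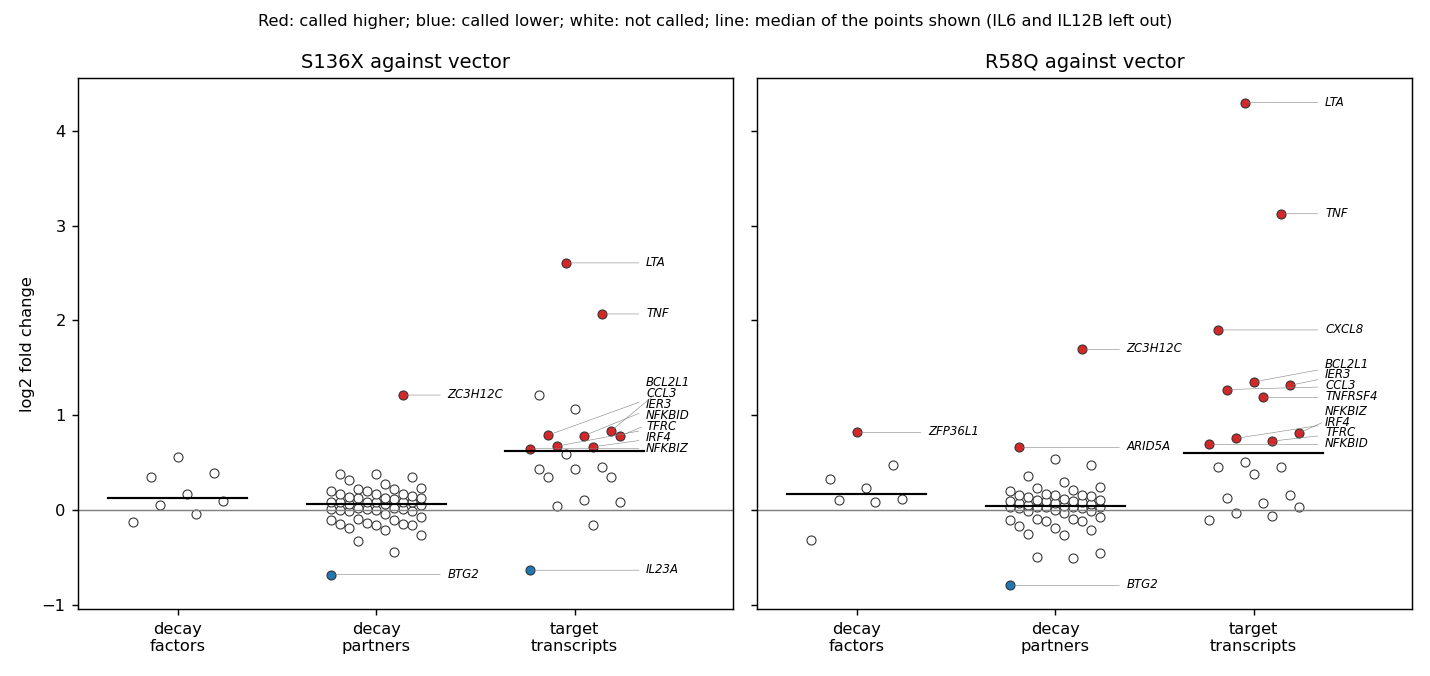
Log2 fold change of each tested gene in the lists of decay factors, decay partners and target transcripts, with S136X (left) or R58Q (right) against vector. Red points were called higher, blue points lower and white points not called, lines mark medians, and IL6 and IL12B, at or near 0 counts in vector, are left out. Most points of the first 2 lists lie near 0, and the called target transcripts lie above 0 except IL23A with S136X.

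LTA and TNF, cytokines whose mRNAs carry AU-rich elements, changed most among the targets with more than a few counts in vector. LTA was at 25.4, 28.3 and 29.6 CPM in vector, 163, 178 and 167 CPM with S136X and 583, 426 and 630.1 CPM with R58Q. TNF was at 70.8, 76.6 and 82.0 CPM in vector, 330.3, 325 and 307 CPM with S136X and 786, 559.7 and 658 CPM with R58Q. The 3 groups did not overlap for either gene, and both were called higher in each mutant against vector and in R58Q against S136X. LTA rose by 2.61 and 4.30 on the log2 scale against vector (adjusted p = 1.75e-06 and 1.22e-05) and TNF by 2.07 and 3.12 (adjusted p = 2.64e-06 and 1.76e-05). The TNF UTR held 8 heptamers, 5 nonamers and 1 stem-loop in 799 bases, and the LTA UTR 3 heptamers and 1 nonamer in 631 bases.

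Both interleukins best known as Regnase-1 targets, IL6 and IL12B, were near 0 without R58Q. IL6 had 0 counts in all 3 vector libraries, 2 in each S136X library and 91, 63 and 87 with R58Q, which was at least 29.1-fold above a floor of 3 counts a library. IL12B had 2, 1 and 2 counts in vector, 0, 3 and 1 with S136X and 25, 30 and 80 with R58Q, a CPM ratio of 29.4 over vector (95% counting interval 12.3 to 91.9), or 18.5 (7.48 to 59.3) without R58Q replicate 3. Both entered the test of R58Q against vector only through their R58Q counts. There both were called (adjusted p = 0.00027 and 0.0023 by edgeR), which is given as a description.

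The 8 other targets named by rule were higher in R58Q. CXCL8, a neutrophil chemokine with few counts, was at 9 to 19 counts in vector, 20 to 34 with S136X and 29 to 69 with R58Q (log2 fold change 1.90 in R58Q, adjusted p = 0.0207, lost without vector replicate 1, 0.0522, or vector replicate 3, 0.0734). With S136X its value was 1.21 (adjusted p = 0.0637, or 0.0178 and called with the replicate block). BCL2L1, which encodes the survival protein BCL-xL, rose by 0.83 and 1.35 in S136X and R58Q (adjusted p = 0.000278 and 4.56e-05). IER3, an early response gene, rose by 0.78 and 1.32 (adjusted p = 0.0111 and 0.000747), and the first was lost without vector replicate 2 (0.0592). CCL3, a chemokine, rose by 0.79 and 1.27 (adjusted p = 0.0415 and 0.000906), and its S136X call was lost in 4 of 6 fits that left out a library, with vector replicates 1 (0.0942) and 2 (0.145) and S136X replicates 2 (0.0967) and 3 (0.081).

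The last 4 held stem-loop matches in their UTRs. TNFRSF4, the receptor OX40, was at 43 to 68 counts in vector and 91 to 143 with R58Q (log2 fold change 1.19, adjusted p = 0.015, lost without vector replicate 2, 0.0669, or 3, 0.0561), while its S136X value of 1.07 was not called (adjusted p = 0.0535, or 0.00272 and called with the replicate block). NFKBIZ, an atypical IkB protein, rose by 0.65 and 0.81 (adjusted p = 0.0045 and 0.00268), and by 0.54 in S136X without S136X replicate 1, which is under 1.5-fold. IRF4, a B-cell transcription factor and also a marker of ABC-DLBCL, rose by 0.67 and 0.76 (adjusted p = 0.00153 and 0.00157). TFRC, the transferrin receptor, rose by 0.67 and 0.73 (adjusted p = 0.000829 and 0.000661).

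The remaining called targets were NFKBID and IL23A, named after their values were seen. NFKBID, an IkB protein whose UTR held 4 stem-loop matches in 318 bases, rose by 0.78 and 0.69 (adjusted p = 0.000366 and 0.00111). Whether these matches overlap was not examined. IL23A, which encodes a subunit of IL-23, was at 8.83 to 11.3 CPM in vector, 5.82 to 7.60 CPM with S136X and 9.51 to 11.99 CPM with R58Q, lower with S136X (−0.63, adjusted p = 0.0312) and not called with R58Q (0.13, adjusted p = 0.529). Between the mutants it differed by 0.76 (adjusted p = 0.0935, or 1.15e-05 and called with the replicate block). The S136X call of IL23A was lost without vector replicate 1 (0.0684) or 2 (0.145) or S136X replicate 1 (0.0612) or 3 (0.106).

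Sequence elements were counted in the targets without a test. Of the 13 targets called higher with R58Q, 10 held the heptamer, 4 the nonamer and 6 a stem-loop. Of 10 tested targets that were not called and had a UTR in the annotation, 8 held the heptamer, 6 the nonamer and 3 a stem-loop. All 34 targets with a UTR, chosen for being known targets, held these in 26, 16 and 13 cases.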

How the data were processed

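The authors deposited 1 table with the number of reads counted on each gene in each library, and beside those counts a normalized signal, in which every count of a library is divided by a factor of its own. The deposited counts were used here, and the signal was not. RNA was poly(A)-selected and sequenced in 2 runs that were combined. The submitters' processing notes name cutadapt, STAR, Picard and hg38, while the counting program and its annotation are not given in the sources used here. The study calls the replicates biologic, and the labels do not say whether they were separate cultures, so p-values measure the spread between these libraries.

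Each pair of groups (6 libraries) was fitted with edgeR 4.0.16 in R 4.3.3 (filterByExpr, minimum count 10 and minimum total 15, TMM, quasi-likelihood test, Benjamini-Hochberg adjustment). The standard error of a log2 fold change was taken as its size over the square root of F. CPM were scaled by TMM factors. Bounds against 0 counts use 3 counts a library and, like the counting intervals (95%), cover counting error only. The alternatives used DESeq2 1.42.0, limma-voom (limma 3.58.1), other scaling, filters, thresholds, gene sets and libraries. Libraries of a group differed beyond sampling noise (chi-square over its degrees of freedom 7.91 to 25.6).

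The labels number the replicates 1 to 3, and libraries with the same number deviated together from their group means (9 correlations, 0.143 to 0.626, against −0.459 to 0.169 for the other 18), so the number was taken to pair the libraries. These ranges overlap, deviations within a group sum to 0, and the labels do not state a pairing. In the column names, all R58Q libraries carry a later date than the vector and S136X libraries they were paired with. The 8 members, both lists and the markers were written by hand with earlier results of these data known. ZC3H12C and several targets also stand in gene lists that the study drew from these libraries. Named partners and targets were those called in either mutant against vector, at most 12 a list by the size of the change in R58Q, plus the 4 relatives. Of the identifiers, 96.3% are in GENCODE 29. Protein sequences were not used here.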

Additional observations from a re-analysis of the deposited data

Results flagged for a closer look

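In 5 of the 24 target transcripts tested the effects of the 2 mutants differed by the direct test of R58Q against S136X (edgeR, adjusted p under 0.05 by Benjamini-Hochberg), as did 0.533% of all genes tested. IL6 and IL12B, near 0 counts with S136X, entered this test only through their R58Q counts, so the count of 5 is given as a description. IL6 was higher in R58Q by a CPM ratio of 39.2 (95% counting interval 17.7 to 107.8, adjusted p = 0.00162) and IL12B by a ratio of 32.9 (95% counting interval 12.6 to 122.6, adjusted p = 0.0461). LTA was higher by 1.68 on the log2 scale (SE 0.138, adjusted p = 0.00419), TNF by 1.05 (SE 0.113, adjusted p = 0.0138) and BCL2L1 by 0.51 (SE 0.0662, adjusted p = 0.0231, under 1.5-fold). In each, 3 of 3 R58Q libraries lay above all S136X libraries, while 17% of all genes had groups that did not overlap in either direction. The 5 were picked by the test on these same libraries. The IL12B ratio was 84.5 (14.9 to 3362) without S136X replicate 2, which leaves 1 count, and 20.8 (7.67 to 78.9) without R58Q replicate 3. Without 1 library the adjusted p passed 0.05 for IL12B in 5 of 6 fits (0.0578 to 0.252, all but the fit without R58Q replicate 1) and for BCL2L1 in 5 of 6 (0.0803 to 0.16, all but the fit without R58Q replicate 2). The same happened to TNF without S136X replicate 2 (0.0721), S136X replicate 3 (0.137) or R58Q replicate 3 (0.0742), and to LTA without S136X replicate 3 (0.0801), while IL6 kept its call in all 6. The later date of all R58Q libraries cannot be told apart from the construct in these comparisons.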

How the results depend on the processing

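Of 1303 recomputed values, 1229 kept their direction and their side of the threshold, 30 lost a call, 14 gained one and 30 changed sign. Without a fold threshold, 3 of the 8 factors passed with S136X (0 with it) and 3 with R58Q (1 with it), and 7 and 11 partners (2 and 3 with it). At an adjusted p under 0.01, 1 partner was called with S136X and 2 targets in R58Q against S136X (4 at 0.05), and the latter were also 2 among genes with at least 10 counts in every library. Leaving out 1 library at a time gave 0 to 1 factors and 1 to 2 partners called with S136X, and 1 to 4 targets in R58Q against S136X. The replicate block called 0, 1 and 0 factors, as the fit without it did, 12 targets higher and 1 lower with S136X, 13 with R58Q and 5 between the mutants. It raised the share of all genes called from 3.87% to 6.53%, from 7.63% to 10.7% and from 0.434% to 2.94%, and changed no call of a named gene other than CXCL8 and TNFRSF4 (S136X) and IL23A (between the mutants), all gained. Over all genes, S136X had 601 calls, but 279 once vector replicate 2 was left out, 349 without S136X replicate 3, 934 with no filter, 1014 with the block, 262 at an adjusted p under 0.01 and 1574 at any fold. R58Q had 1178 calls, but 719 once vector replicate 2 was left out, 778 without R58Q replicate 3, 596 at 0.01 and 3243 at any fold. Between the mutants there were 66, but 28, 17 and 5 once S136X replicates 1, 2 and 3 were left out in turn, 40 and 17 without R58Q replicates 1 and 3, 146 by DESeq2, 165 with no filter, 114 with all libraries in one fit, 446 with the block, 33 among protein-coding genes and 15 at 0.01. Scaling by total counts moved the share of higher genes among all calls from 53.1% to 41.1% with S136X and from 53.7% to 42.6% with R58Q (upper quartile 41.2%).

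The changes of sign were all in values that did not pass the test. With S136X against vector, ZC3H12B was at −0.040 by limma-voom, KHNYN at −0.012 by upper-quartile scaling and −0.029 by total counts, and ZC3H12D at −0.00468 by total counts. With R58Q, ZC3H12B was at −0.31 by limma-voom and −0.030 with the replicate block. In R58Q against S136X, RC3H2 was at −0.00848 by upper-quartile scaling. Without 1 library, the S136X values spanned −0.0061 to 0.19 for ZC3H12D, −0.18 to 0.64 for ZC3H12B, −0.25 to 0.012 for ZFP36 and −0.093 to 0.030 for ZFP36L2, and the R58Q value of ZC3H12B spanned −0.88 to 0.57. Between the mutants they spanned −0.023 to 0.10 for ZC3H12D, −0.087 to 0.045 for RC3H1, −0.024 to 0.072 for RC3H2, −0.019 to 0.14 for N4BP1, −1.07 to 0.37 for ZC3H12B, −0.12 to 0.46 for TNFRSF4, −0.0020 to 0.14 for IRF4 and −0.014 to 0.11 for TFRC. The causes were not tested. With 3 libraries a group, the intervals of ZFP36 against vector and of N4BP1 and ZC3H12D with R58Q still include changes of over 1.3-fold, and IL6, IL12B and ZC3H12B rest on few counts.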
